A study of Rattus norvegicus with 24 samples.

Results

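The comparison described here set heart ventricle of rats fed a low-salt diet against ventricle of rats fed a high-salt diet. It used 8 of the 24 RNA sequencing libraries of the study, 4 from rats on low salt and 4 from rats on high salt, and took in every gene of the heart table that passed a filter on low counts, which left 15473 of 36856 genes. The libraries were chosen by the tissue and diet in their labels. All rats were Sprague-Dawley animals of 120 to 200 g that ate a synthetic diet for 7 days. Low salt meant a Na content of 0.01 to 0.02%, and high salt a Na content of 0.4%, which the study's design text treats as the control level. No genetic change and no infusion was part of either group, and the labels give no age. A piece of ventricle was taken from each heart, and the side of the heart is not stated. Each diet had 2 rats in each of the 2 batches named in the labels: replicates 1 and 2 belong to batch 1, replicates 3 and 4 to batch 2. The other libraries came from kidney inner medulla, and the 8 kidney libraries of the same diet experiment are used below where a heart value is set against kidney.

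Salt intake sets how much fluid the body holds, and so how far the heart is filled and stretched with each beat. Ventricular muscle cells under stretch or pressure turn on a group of genes that are otherwise prominent before birth, among them the natriuretic peptides Nppa and Nppb, the skeletal form of actin (Acta1) and the slow myosin heavy chain (Myh7). A low salt intake also raises renin, angiotensin and aldosterone, and heart muscle carries receptors for these hormones. When muscle loses mass, FoxO transcription factors turn on ubiquitin ligases and autophagy genes that break down muscle protein.

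The heart libraries held 26300000 to 32567000 counts on low salt and 27162000 to 30421000 on high salt. The unit of level used here is CPM, counts scaled to library size. Taken on these totals, before the scaling described under processing, 1 CPM stands for at least 26.3 counts. Ventricular muscle markers were abundant, with Myl2 at 7936 CPM or more and Tnnt2 at 11524 CPM or more in every library, while Myod1 of skeletal muscle, Th of sympathetic neurons and Retn of fat were at 0 in all 8 and the atrial marker Bmp10 reached at most 0.0982 CPM. The labels describe the rats as female. Xist, which is transcribed from the inactive X chromosome of females, reached at most 0.0336 CPM in the heart libraries, and 4 Y-linked genes together stood at 148 to 185 CPM, so all 8 libraries go against that label in the same way and the diets do not differ in it. Globin RNA took 1.78% to 5.72% of the counts on low salt and 0.235% to 3.70% on high salt. The batches separated on the first principal component, which held 39.5% of the variance, so batch was a term in the fit.

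In ventricle 8 genes passed an adjusted p of 0.05 (edgeR quasi-likelihood test, Benjamini-Hochberg adjustment over all genes), 0.0517% of those tested. Of these, 2 were higher on low salt (0.0129%) and 6 were lower (0.0388%). The genes that fell were the actin gene Acta1, the muscle ubiquitin ligase subunit Fbxl22, the Wnt receptor Fzd1, the long noncoding RNA Jpx, the Snail-family repressor Snai3 and the pseudogene Nid2-ps16. Those that rose were the ubiquitin ligase subunit Fbxo31 and the uncharacterised long noncoding RNA LOC134484917. An unadjusted p under 0.05 was reached by 879 genes with a higher level on low salt (5.68%) and by 762 with a lower level (4.92%). DESeq2, on the same counts and with the same batch term, placed 189 genes higher (1.22%) and 114 lower (0.737%), among them 7 of the 8, and gave no adjusted p for Snai3. With the replicate number as a block in place of batch, edgeR placed 0 genes past the threshold, and left 733 higher and 630 lower genes whose unadjusted p was under 0.05. The fold changes of the 8 genes kept their direction under that block, and their adjusted p ran from 0.0785 for Acta1 to 0.222 for LOC134484917 and Nid2-ps16. The 4 low-salt values lay wholly above the 4 high-salt values in 2.69% of all genes and wholly below them in 2.04%. Changes over all genes were small, with a median log2 fold change of -0.01 and a median size of 0.12.

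Acta1 had the smallest p. Its level in the 4 high-salt rats was 2876, 2534, 5747 and 5212 CPM, and in the 4 low-salt rats 861, 1114, 1717 and 1736 CPM. Every low-salt value lay below every high-salt value, and batch 2 stood above batch 1 in both diets. The mean was 4092 ± 1622 CPM (SD, n = 4) on high salt and 1357 ± 439 on low salt, a log2 fold change of -1.56 ± 0.10 (SE; adjusted p 0.00258, edgeR), or 2.95-fold lower. The fold change was -1.46 in batch 1 and -1.67 in batch 2. Acta1 was the only one of the 8 genes that stayed past the threshold whichever of the 8 heart libraries was left out. Acta1 encodes skeletal alpha-actin, which is close in coding sequence to the cardiac form, Actc1, and short reads that fit both were shared out by estimation. Actc1 stood at 22381 ± 4961 CPM on high and 18600 ± 1921 on low salt (log2 fold change -0.24 ± 0.08, adjusted p 0.354). Acta1 is abundant in skeletal muscle as well. Of 10 markers listed for that tissue 4 were tested, 1 fell (Acta1) and 0 rose, with a median of -0.07 that was -1.08 in batch 1 and 0.21 in batch 2, and their sum ran from 6047 to 9483 CPM on high and 5156 to 5713 CPM on low salt. Apart from Acta1 and Ckm, which the heart also makes, Tnnt3 reached at most 1.69 CPM and Myh4 at most 1.54 CPM in any heart library, Myh1, Myh2, Tnni2 and Actn3 stayed under 1 CPM, and Myod1 was at 0. The part of skeletal muscle RNA in the value of Acta1 was not tested. In a bulk sample of this kind, less RNA per cell and fewer cells of a type cannot be told apart.

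Fbxl22 encodes an F-box protein of the sarcomere that targets muscle proteins for degradation. It read 105, 102, 115 and 124 CPM on high salt and 47.0, 50.3, 77.2 and 67.4 CPM on low salt, with no overlap of the groups. The log2 fold change was -0.91 ± 0.09 (adjusted p 0.0214, edgeR), a 1.88-fold lower level.

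Upstream sequence is shown for Acta1 and Fbxl22, the muscle genes that fell, and for Nppb and Trim63, a stretch-induced gene and an atrophy gene described further on that did not pass the threshold. Each is the 250 bases before the annotated start, 5′ to 3′ on the gene's own strand, from RefSeq on the GRCr8 assembly. Capitals mark matches on either strand to the CArG box, which serum response factor binds, to the MCAT element of TEAD factors (CATTCC) and to a FoxO site (GTAAACA). The windows are chr19:68784195-68784444 on the minus strand, chr8:75971715-75971964 on the minus strand, chr5:163699758-163700007 on the plus strand and chr5:151816986-151817235 on the plus strand.
Acta1: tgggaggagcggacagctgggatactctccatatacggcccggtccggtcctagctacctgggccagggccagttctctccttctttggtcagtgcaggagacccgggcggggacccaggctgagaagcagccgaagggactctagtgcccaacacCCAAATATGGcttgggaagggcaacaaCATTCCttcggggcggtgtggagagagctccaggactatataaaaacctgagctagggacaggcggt
Fbxl22: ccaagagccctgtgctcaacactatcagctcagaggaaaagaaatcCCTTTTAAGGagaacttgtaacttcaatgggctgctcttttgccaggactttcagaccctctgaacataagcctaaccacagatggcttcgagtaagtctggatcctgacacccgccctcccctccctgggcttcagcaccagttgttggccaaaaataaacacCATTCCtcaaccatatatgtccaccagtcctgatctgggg
Nppb: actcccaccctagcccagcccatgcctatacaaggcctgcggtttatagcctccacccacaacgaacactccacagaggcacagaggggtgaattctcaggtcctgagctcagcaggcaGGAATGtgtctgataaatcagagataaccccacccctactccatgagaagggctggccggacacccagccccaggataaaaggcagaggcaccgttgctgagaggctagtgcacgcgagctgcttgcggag
Trim63: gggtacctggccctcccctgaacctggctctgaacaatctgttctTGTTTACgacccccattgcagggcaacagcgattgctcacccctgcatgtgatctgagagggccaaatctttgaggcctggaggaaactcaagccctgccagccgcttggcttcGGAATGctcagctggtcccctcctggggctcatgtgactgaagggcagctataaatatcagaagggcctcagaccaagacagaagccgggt
In Acta1 the CArG box starts 94 bases before the start and the MCAT element 67 bases before it. In Fbxl22 the CArG box starts 204 bases and the MCAT element 40 bases before the start. Nppb has 1 MCAT match 131 bases before the start, and Trim63 has an MCAT match 91 bases and a FoxO match 205 bases before it. Shares were taken over a window that runs on to 50 bases past the start. Of 12626 genes tested in heart with a promoter in the table, 1.47% hold a CArG box, 12.5% an MCAT match and 2.78% a FoxO match. Over all 27457 genes with a promoter there, the shares are 1.77%, 15% and 4.13%. Of the 8 genes past the threshold, 6 have a promoter there, and 2 of the 6 hold a CArG box and 2 an MCAT match, Acta1 and Fbxl22 in both cases. In the stretch-induced list described further on, 2 of 14 genes with a promoter hold a CArG box and 3 an MCAT match. In the atrophy list, 3 of 21 hold an MCAT match. In the extracellular matrix list, also described further on, 7 of 25 hold an MCAT match (28%) and 0 a CArG box. The motifs do not overlap in these 4 windows, and a match of letters does not show that a factor binds.

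Fzd1, a cell-surface receptor for Wnt ligands, was the third gene in order of p. High-salt rats had 109.8, 109, 166 and 141 CPM and low-salt rats 58.2, 65.9, 91.6 and 89.5 CPM. The groups did not overlap. The log2 fold change of -0.79 ± 0.07 (adjusted p 0.0118, edgeR) was near the same in batch 1 (-0.82) and batch 2 (-0.76). Fzd1 was the 1 gene past the threshold among 22 tested genes of a list of Wnt, BMP and TGF-beta signalling, whose median log2 fold change was -0.04. Leaving out a heart library kept Fzd1 past the threshold in 3 of 8 fits, and Fbxl22 in 2. The related receptors Fzd2 and Fzd7 had log2 fold changes of -0.29 ± 0.14 and 0.39 ± 0.18, with adjusted p of 0.523 and 0.488. Both were looked up after the value of Fzd1 was seen.

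Jpx, a noncoding RNA that lies next to Xist on the X chromosome and is known as an activator of it, read 6.08, 6.42, 9.001 and 7.73 CPM on high salt. On low salt it read 2.07, 1.99, 1.85 and 2.13 CPM, so the diets were well apart and the low-salt rats close together. The log2 fold change was -1.85 ± 0.15 (adjusted p 0.00966, edgeR), a 3.60-fold lower level, from 164 to 271 counts per library on high salt and 52 to 65 on low salt. Xist itself was too low to be tested. On the GRCr8 assembly Jpx overlaps the protein-coding gene Hrasl1, which was not among the genes tested. Whether reads were counted by strand is not known. Jpx stayed past the threshold in 5 of the 8 fits that left out a heart library.

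Snai3 and Nid2-ps16 were the other genes that fell. Snai3, a zinc-finger repressor of the Snail family, had 22, 32, 34 and 21 counts on high salt and 3, 4, 5 and 3 counts on low salt, or 0.748 to 1.13 CPM against 0.0985 to 0.149 CPM. Its log2 fold change was -2.81 ± 0.32 (adjusted p 0.0396, edgeR), it lies below the level of 1 CPM that the naming rule asks for, and it is named here because it is 1 of 8. Leaving out any 1 heart library put it back above the threshold. Nid2-ps16, a transcribed pseudogene, read 29.7, 34.2, 31.5 and 33.7 CPM on high salt and 21.3, 19.7, 23.2 and 21.4 CPM on low salt, with a log2 fold change of -0.59 ± 0.07 (adjusted p 0.0457, edgeR). Reads of a pseudogene can be shared with its parent. The parent Nid2 itself read 21.9 and 25.6 CPM on high against 7.87 and 7.93 on low salt in batch 1, and 9.70 and 10.3 against 12.9 and 10.4 in batch 2 (adjusted p 0.519).

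Fbxo31 and LOC134484917 rose. Fbxo31, an F-box protein that hands substrates to a ubiquitin ligase, read 61.6, 57.0, 41.0 and 44.1 CPM on high salt and 87.0, 81.0, 58.7 and 59.3 CPM on low salt. Its 2 groups overlap because batch 1 was higher than batch 2, and within each batch both low-salt rats lay above both high-salt rats. The log2 fold change was 0.49 ± 0.06 (adjusted p 0.0396, edgeR), with 0.50 in batch 1 and 0.47 in batch 2. LOC134484917 read 1.96, 1.53, 1.56 and 1.35 CPM on high salt and 7.51, 12.5, 4.77 and 4.92 CPM on low salt. This is a 4.39-fold higher level (log2 fold change 2.14 ± 0.24, adjusted p 0.0396, edgeR), with replicate 2 of the low-salt group highest. Fbxo31 and Nid2-ps16 did not stay past the threshold in any of the 8 fits that left out a heart library, and LOC134484917 stayed in 1.

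**Figure D1:**
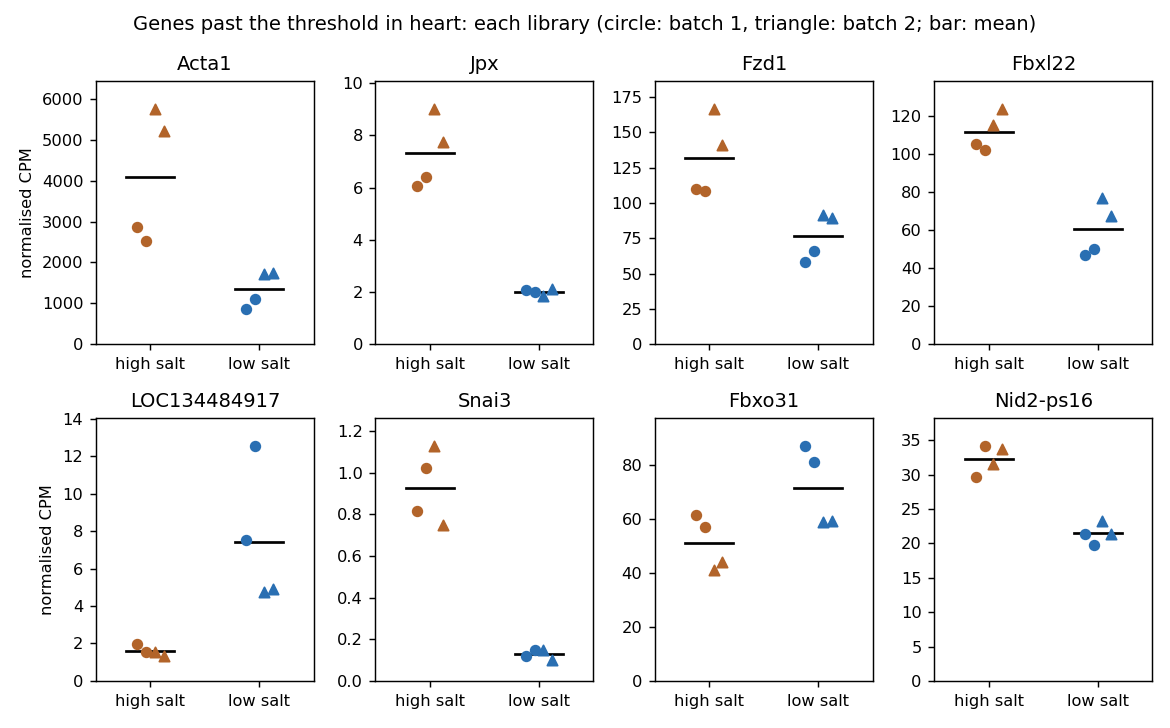
Level of the 8 genes past the threshold in each heart library, in TMM-normalised CPM on the y axis from 0, with high salt at left and low salt at right of each panel. Circles are batch 1, triangles batch 2 and bars the mean of 4 rats; the diets do not overlap except for Fbxo31, where they separate within each batch.

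The genes with the next smallest p among those higher on low salt were Spop, Frat1 and Ulk1, each with an adjusted p of 0.0813. Spop, an adaptor of a cullin ubiquitin ligase, read 180 to 200 CPM on high salt and 241 to 271 CPM on low salt (log2 fold change 0.45 ± 0.06). Frat1, a protein that binds glycogen synthase kinase in the Wnt pathway, read 3.53 to 5.63 CPM on high and 7.22 to 9.12 CPM on low salt (0.82 ± 0.11). Ulk1, the kinase that starts autophagy, read 107, 116, 101 and 79.6 CPM on high and 176, 157, 142 and 149 CPM on low salt (0.63 ± 0.09). All 3 genes had 4 low-salt values above 4 high-salt values.

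The fetal and stretch-induced genes were mostly lower on low salt. Of 18 listed genes, 17 were tested (Ankrd2 was too low), 1 fell (Acta1) and 0 rose past the threshold. A negative log2 fold change was found for 15 of the 17 against 51.8% of all genes, and the median was -0.55 against -0.01 over all genes. An unadjusted p under 0.05 with a lower level was reached by 9 of the 17, against 4.92% of all genes. No overlap between the diets was found for 5, all lower on low salt, against 2.04% of all genes. The median was -0.41 in batch 1 and -0.64 in batch 2. DESeq2 placed 6 of the 17 past the threshold, all lower, against 0.737% of all genes. This list, like the other gene lists here, was chosen with earlier results of these data known. Its counts beside the shares of all genes describe the data and are no independent test.

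Nppb, the B-type natriuretic peptide, is secreted by stretched ventricle and increases Na excretion. It read 267, 224, 142 and 465 CPM on high salt and 69.7, 95.1, 56.7 and 84.5 CPM on low salt. All low-salt rats were below all high-salt rats, with a log2 fold change of -1.84 ± 0.35, and the adjusted p was 0.157 in edgeR and 0.00166 in DESeq2. Nppa, the atrial peptide, read 265, 102, 299.8 and 2513 CPM on high salt and 44.96, 69.7, 16.7 and 202 CPM on low salt. Its log2 fold change of -2.69 ± 0.95 (adjusted p 0.378) became -1.59 without replicate 4 of the high-salt group, whose value was the highest. That rat also had the highest Myh7, at 4491 CPM against 742, 801 and 1048 CPM in the other high-salt rats and 759, 804, 221 and 298 CPM in the low-salt rats. The log2 fold change of Myh7 was -1.70 ± 0.81 (adjusted p 0.501), 0.02 in batch 1, -3.42 in batch 2 and -0.85 without that rat. Myh6, the fast myosin of adult rat ventricle, stood at 21953 ± 2847 CPM on high and 19246 ± 5141 CPM on low salt (adjusted p 0.634).

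Nppa and Myl7 are also markers of atrial muscle, which a piece of ventricle could hold in traces. The 8 atrial markers summed to 3974 CPM in replicate 4 of the high-salt group and to 1151 to 1524 CPM in the other 7 libraries, and Nppa made up 2513 CPM of that highest sum. Of the other markers, Pam, which amidates peptides, was also highest in that rat, at 1364 CPM against 1030.4 to 1207 CPM in the other 7, as was Myl4, an atrial light chain, at 3.96 CPM against 2.24 to 3.26 CPM. Myl7, another atrial light chain, was not, at 54.9, 3.99, 12.9 and 15.9 CPM on high and 11.6, 6.68, 11.5 and 3.74 CPM on low salt. Upk3b and Fgf12 were not at their highest there either, at 17.3 and 60.05 CPM. Sln, an atrial calcium pump regulator, read 0.107 CPM there, the lowest of the 8 libraries, and Bmp10 was at or near 0 in all of them. Of the 7 atrial markers tested 0 passed the threshold, with 3 positive and 4 negative fold changes. Their median was -0.03 (0.04 in batch 1 and -0.23 in batch 2). An unadjusted p under 0.05 with a lower level was found for 1, against 4.92% of all genes. The part of atrial RNA in the values of Nppa and Myh7 was not tested.

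Ankrd1, a stretch-responsive protein of the sarcomere and nucleus, read 3463, 4119, 4361 and 7331 CPM on high salt and 2158, 2084, 2556 and 2154 CPM on low salt, with no overlap (log2 fold change -1.07 ± 0.17, adjusted p 0.105). Rcan1, an inhibitor of calcineurin that calcineurin itself induces, read 431, 489, 474 and 715 CPM on high and 281, 302, 311 and 317 CPM on low salt (-0.79 ± 0.13, adjusted p 0.105). Tnfrsf12a, the receptor of the cytokine TWEAK, also had no overlap (-0.82 ± 0.19, adjusted p 0.226). Nmrk2, a kinase that makes NAD from nicotinamide riboside, differed more between batches than between diets, at 22.9, 28.4, 92.3 and 88.6 CPM on high and 19.9, 11.7, 51.6 and 26.8 CPM on low salt. Other members were near equal in both diets, such as Csrp3 with -0.06 ± 0.07 and Cryab with -0.04 ± 0.10. Rcan1, Tnfrsf12a, Nmrk2, Csrp3 and Cryab were chosen after their values were seen, as were the list members named below that lie outside the naming rule. Of the other natriuretic genes, Furin, a protease that cuts peptide precursors, had the smallest p after Nppb, at 100 to 125 CPM on high and 131 to 139 CPM on low salt (0.29 ± 0.07, adjusted p 0.267). The receptors Npr1, Npr2 and Npr3 had log2 fold changes of -0.23 ± 0.13, -0.04 ± 0.07 and -0.04 ± 0.32.

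**Figure D2:**
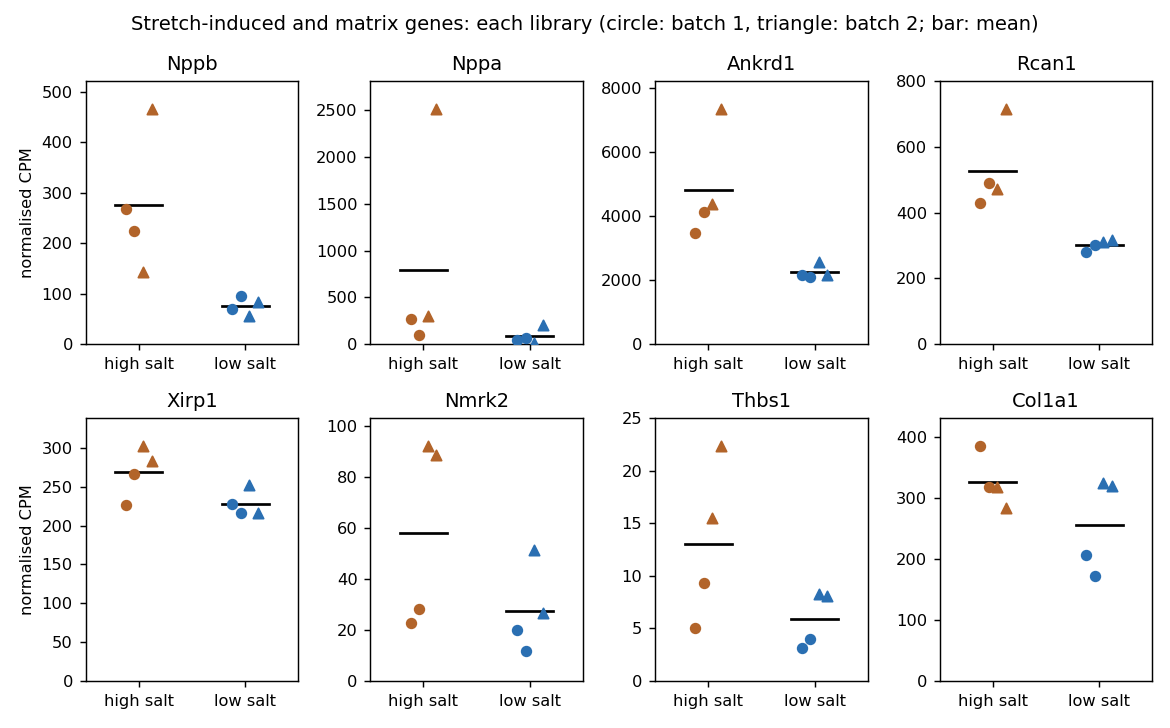
Level of 8 stretch-induced and matrix genes in each heart library, in TMM-normalised CPM on the y axis from 0, high salt at left and low salt at right. Circles are batch 1, triangles batch 2 and bars the mean of 4 rats; Nppb, Ankrd1 and Rcan1 do not overlap between the diets, 1 high-salt rat sets the scale for Nppa, and Col1a1 differs between the diets in batch 1 but not in batch 2.

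The FoxO, atrophy and autophagy genes were nearly all higher on low salt. All 29 listed genes were tested. Fbxo31 rose and 0 fell, 28 of 29 had a positive log2 fold change against 48.2% of all genes, and the median was 0.24. An unadjusted p under 0.05 with a higher level was reached by 15 of the 29, against 5.68% of all genes. No overlap was found for 8 of 29, all higher, against 2.69% of all genes. The medians in batch 1 and batch 2 were 0.29 and 0.27, and the median without any 1 library lay between 0.23 and 0.26. DESeq2 placed 11 past the threshold, all higher, against 1.22% of all genes. This list too was chosen with earlier results of these data known, so these counts are no independent test. The differences were modest: the largest was that of Ulk1, given above.

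Among the transcription factors of that list, Foxo1 read 46.2, 46.3, 46.1 and 42.6 CPM on high and 60.9, 54.9, 58.5 and 54.0 CPM on low salt (log2 fold change 0.33 ± 0.06, adjusted p 0.143). Foxo4 read 75.0 to 83.6 CPM on high and 88.2 to 116 CPM on low salt (0.41 ± 0.07, adjusted p 0.122), and Foxo3 differed less (0.15 ± 0.07, adjusted p 0.507). Of the muscle ubiquitin ligases, Trim63 (MuRF1) read 129, 128, 102 and 105 CPM on high and 170, 148, 141 and 149 CPM on low salt (0.40 ± 0.07, adjusted p 0.111). Fbxo32 (atrogin) read 33.3 to 47.2 CPM on high and 46.9 to 67.0 CPM on low salt (0.39 ± 0.11, adjusted p 0.284), and those ranges overlap. Trim63 and Fbxo32 share a direction with Fbxo31, whereas Fbxl22, the other F-box gene past the threshold, went the opposite way. Of the autophagy genes, Gabarapl1 and Map1lc3b, which coat the autophagosome, had log2 fold changes of 0.26 ± 0.06 and 0.24 ± 0.06 (adjusted p 0.221 and 0.271), and Bnip3, a mitophagy receptor, 0.42 ± 0.11 (adjusted p 0.271). Becn1, which acts after Ulk1, was near equal (0.05 ± 0.07). A FoxO site was found in the promoters of 2 of 21 list members with a promoter, Pik3ip1 and Trim63 (9.52%, against 2.78% of tested genes).

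Extracellular matrix genes were mostly lower on low salt, with a split between batches. Of 35 members, 0 passed the threshold (edgeR), 33 had a negative and 2 a positive log2 fold change, and the median was -0.39. An unadjusted p under 0.05 with a lower level was reached by 15 of 35, against 4.92% of all genes. No overlap was found for 6, all lower, against 2.04% of all genes. DESeq2 placed 5 past the threshold, all lower, against 0.737% of all genes. The median was -0.70 in batch 1 and -0.06 in batch 2. Col1a1, the main fibrillar collagen chain, read 385 and 318 CPM on high against 207 and 173 CPM on low salt in batch 1, and 319 and 283 against 325 and 320 CPM in batch 2. Col3a1, which is laid down with it, had log2 fold changes of -1.04 in batch 1 and 0.40 in batch 2. Other members had the same sign in both batches. Thbs1 (thrombospondin) had -1.12 ± 0.21 (adjusted p 0.157), with -1.02 in batch 1 and -1.21 in batch 2. Ccn1, a matricellular target of stretch signalling, read 20.4 to 26.9 CPM on high and 13.6 to 18.4 CPM on low salt (-0.60 ± 0.11, adjusted p 0.157). Fn1 (fibronectin) read 52.2 to 68.9 CPM on high and 29.4 to 50.8 CPM on low salt (-0.65 ± 0.15, adjusted p 0.244). Ccn2 (connective tissue growth factor) read 102, 134, 94.96 and 189.8 CPM on high and 36.0, 44.3, 125 and 75.0 CPM on low salt (-1.03 ± 0.30, adjusted p 0.295), and its groups overlap through replicate 3 of the low-salt group.

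Fibroblasts make much of this matrix, and the summed level of their markers was 2101 and 1859 CPM on high against 1494 and 1240 CPM on low salt in batch 1, and 2808 and 2634 against 2761 and 2500 CPM in batch 2. Of the 10 markers, all were tested and 0 passed the threshold. An unadjusted p under 0.05 with a lower level was reached by 1, against 4.92% of all genes. A negative fold change was found for 9 of the markers. Their median was -0.26, with -0.43 in batch 1 and 0.09 in batch 2, and Col1a1 and Col1a2 belong to both lists. The part of fibroblast content in the matrix values was not tested.

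**Figure D3:**
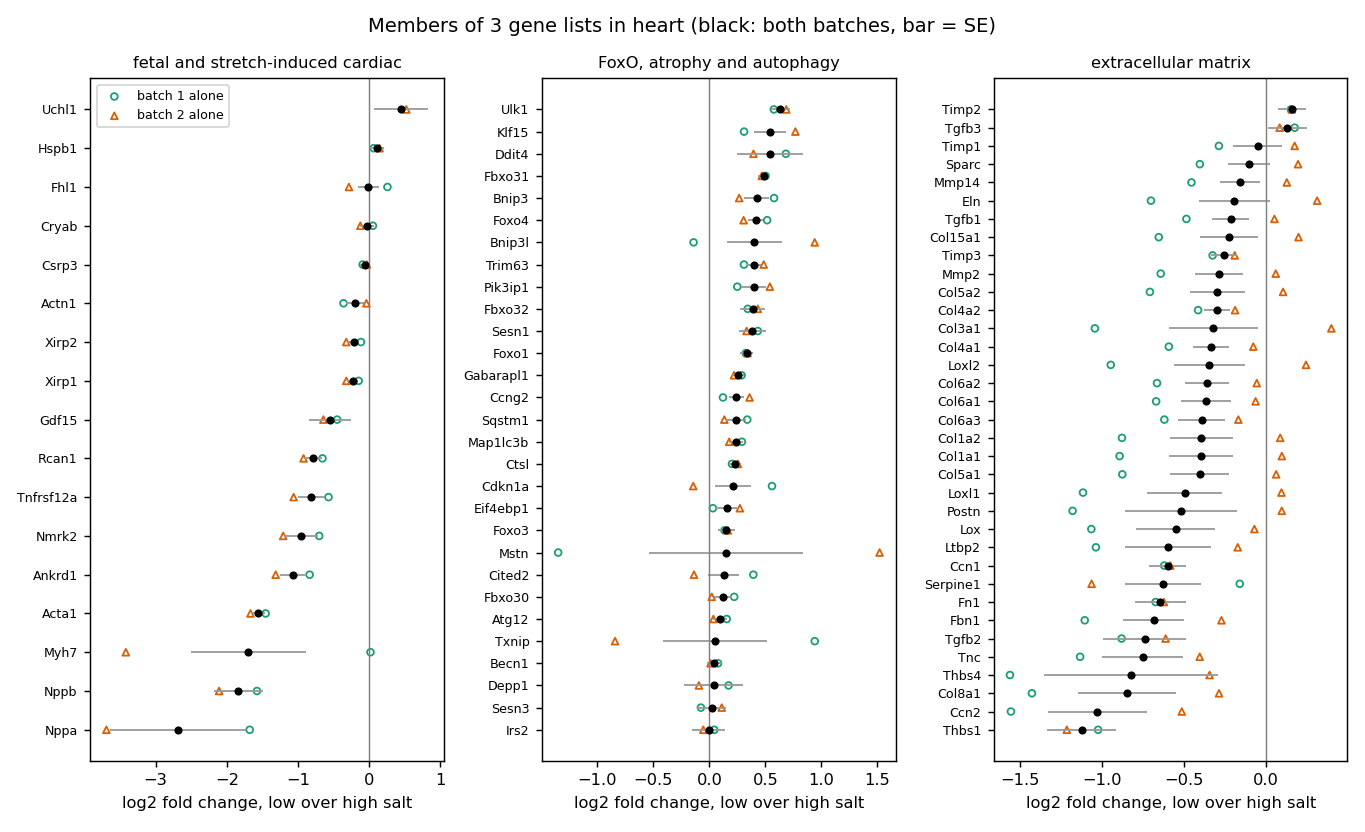
Log2 fold change, low over high salt (x axis), of each tested member of 3 gene lists, ordered by size on the y axis. Black points and bars give the estimate from both batches with its SE, open circles batch 1 alone and open triangles batch 2 alone; the FoxO list sits to the right of 0 in both batches, while the matrix list lies to the left mostly in batch 1.

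Genes of energy metabolism were slightly higher on low salt. Of 33 fatty acid uptake and oxidation genes, 0 passed the threshold (edgeR). An unadjusted p under 0.05 with a higher level was reached by 10, against 5.68% of all genes. A positive fold change was found for 31, against 48.2% of all genes, with a median of 0.17 (0.27 in batch 1 and 0.01 in batch 2). Acadm, the medium-chain acyl-CoA dehydrogenase, read 1033 to 1153 CPM on high and 1221 to 1376 CPM on low salt (0.25 ± 0.05, adjusted p 0.172). Lpl, the lipase that frees fatty acids from lipoproteins, read 1907 to 2255 CPM on high and 2459 to 3077 CPM on low salt (0.38 ± 0.09, adjusted p 0.221). These were the 2 of 33 past the threshold in DESeq2 (adjusted p 8.72e-06 and 0.00209), against 1.22% of all genes with a higher level. All 30 nuclear genes of oxidative phosphorylation had a positive fold change, against the same 48.2%. Values ran from 0.01 to 0.22 with a median of 0.10 (0.14 in batch 1 and 0.05 in batch 2). Of the 30, 0 passed the threshold in edgeR, and 2 did so in DESeq2 with a higher level, against 1.22% of all genes. A uniform sign was also found for 25 ribosomal protein genes, all negative with a median of -0.10 (0.01 in batch 1 and -0.20 in batch 2). In the creatine, ketone and amino acid list, 19 of 22 were positive and 0 passed. Glul (glutamine synthetase) read 175 to 202 CPM on high and 208 to 348 CPM on low salt (0.50 ± 0.11, adjusted p 0.21). Ckm, muscle creatine kinase, read 3083 to 3736 CPM on high and 3933 to 4293 CPM on low salt (0.23 ± 0.07, adjusted p 0.295).

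Glucose genes were mixed, with 15 positive and 9 negative among 24 and 0 past the threshold. Hk1, the hexokinase isoform of the embryonic heart, read 299, 310, 458 and 398 CPM on high and 257, 225, 325 and 253 CPM on low salt (-0.45 ± 0.10, adjusted p 0.216). Slc2a4, the insulin-regulated glucose transporter, read 475, 380, 369 and 374 CPM on high and 579, 505, 428 and 480 CPM on low salt (0.32 ± 0.08, adjusted p 0.271). Pdk4, which blocks pyruvate oxidation, went opposite ways in the batches, with 1.43 in batch 1 and -0.33 in batch 2 (0.55 ± 0.35, adjusted p 0.619). Ucp3, a mitochondrial carrier that follows fatty acid supply, did so too, with 0.66 and -0.23.

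Corticosteroid-induced genes were compared because a low-salt diet raises aldosterone. Of 20 listed genes, 19 were tested, 0 passed the threshold (edgeR) and 15 had a positive fold change, with a median of 0.29 (0.50 in batch 1 and 0.20 in batch 2). An unadjusted p under 0.05 with a higher level was reached by 6, against 5.68% of all genes. DESeq2 placed 6 past the threshold, all higher, against 1.22% of all genes. Klf9, a transcription factor induced by glucocorticoids, read 59.2, 62.5, 79.2 and 75.7 CPM on high and 112, 93.6, 104 and 104 CPM on low salt (0.59 ± 0.09, adjusted p 0.0897). Per1, a clock gene that corticosteroids also induce, read 8.75, 24.3, 9.70 and 12.2 CPM on high and 53.7, 24.2, 31.2 and 46.4 CPM on low salt. Its log2 fold change was 1.52 ± 0.36 (adjusted p 0.239), and the groups meet at 24.2 and 24.3 CPM. Tsc22d3, the glucocorticoid-induced leucine zipper, had 0.34 ± 0.09 (adjusted p 0.258). Other well-known targets were near equal between the diets: Fkbp5 stood at 22.8 ± 1.21 CPM on high and 23.5 ± 6.92 on low salt, with 0.30 in batch 1 and -0.31 in batch 2. Sgk1, the kinase that carries aldosterone action in kidney, had 0.09 ± 0.14 (adjusted p 0.862). Zbtb16, a strongly steroid-induced zinc-finger gene, read 36.1, 37.7, 79.1 and 36.6 CPM on high and 44.3, 44.3, 39.5 and 37.7 CPM on low salt, a log2 fold change of -0.16 ± 0.25 that became 0.19 without replicate 3 of the high-salt group. Angptl4, a lipase inhibitor, was at 0.259 to 3.65 CPM and split by batch (0.80 and -2.30).

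The receptors for these hormones differed little. Nr3c1, the glucocorticoid receptor, stood at 95.4 ± 1.11 CPM on high and 95.7 ± 6.42 on low salt, and Nr3c2, the mineralocorticoid receptor, at 30.9 ± 2.99 and 33.2 ± 2.72 CPM. Hsd11b1, which regenerates active glucocorticoid, stood at 27.5 ± 5.59 CPM on high and 21.2 ± 1.64 on low salt (-0.37 ± 0.10, adjusted p 0.272). The angiotensin-converting enzyme gene Ace had 0.07 ± 0.19 (adjusted p 0.915) and the receptor gene Agtr1a, at 1.39 to 2.42 CPM, had 0.22 ± 0.22 (adjusted p 0.749). Agt, the angiotensin precursor, was too low to be tested. Of 16 genes listed for this system, 8 were tested and 0 passed the threshold. Of the clock genes, 18 of 19 were tested and 0 passed. Per2 read 8.10 to 9.41 CPM on high and 5.78 to 6.84 CPM on low salt (-0.45 ± 0.11, adjusted p 0.226), opposite in sign to Per1, and the labels give no time of day for the dissection.

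Calcium and ion transport genes showed no shared direction. Among 21 tested calcium handling genes, 11 were positive and 10 negative, with 0 past the threshold and a median of 0.01. Rrad, a small GTPase that restrains the L-type calcium channel, read 438, 371, 388 and 388 CPM on high and 355, 297, 341 and 326 CPM on low salt, with no overlap (-0.26 ± 0.08, adjusted p 0.295). Slc8a1, the Na-Ca exchanger, read 336 to 418 CPM on high and 283 to 327 CPM on low salt (-0.25 ± 0.07, adjusted p 0.293). Pln, the inhibitor of the reticulum calcium pump, had 0.21 ± 0.08 (adjusted p 0.406), the pump gene Atp2a2 0.16 ± 0.11 (adjusted p 0.624) and the release channel Ryr2 0.01 ± 0.11 (adjusted p 0.989). Of 22 tested cardiac ion channel genes, 11 were positive and 11 negative. The potassium channel Kcnk3 was tightly grouped, at 89.5 to 90.9 CPM on high and 105 to 113 CPM on low salt (0.26 ± 0.05, adjusted p 0.157). Of 18 tested genes of Na and K transport 0 passed the threshold, with 11 positive and 7 negative fold changes and a median of 0.03. An unadjusted p under 0.05 was found for 1 gene with a higher and 2 with a lower level, against 5.68% and 4.92% of all genes. Edn1 (endothelin) and Vegfa (vascular endothelial growth factor) had -0.52 ± 0.34 and 0.02 ± 0.08, with adjusted p of 0.618 and 0.957.

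Markers of some other cells and states differed widely between libraries of the same diet. Red-cell genes summed to 32711, 35874, 9596 and 2353 CPM on high and 18578, 58805, 20499 and 45952 CPM on low salt, with 11 of 11 positive, 0 past the threshold and a median of 1.29 that was 0.12 in batch 1, 2.43 in batch 2 and 0.74 without replicate 4 of the high-salt group. With globin and ribosomal RNA left out of the table the same counts of 2 higher and 6 lower genes were found, and all 8 genes were kept. Cell cycle genes had 29 of 30 negative and a median of -0.45, but of -1.76 in batch 1 and 0.93 in batch 2, with 0 genes at an unadjusted p under 0.05. Mki67, the proliferation marker, read 17.8, 25.999, 3.35 and 2.07 CPM on high and 5.17, 5.13, 6.95 and 7.09 CPM on low salt, so the first batch of high-salt rats stood apart. Of 9 smooth muscle and pericyte markers tested 0 passed the threshold, 4 were positive and 5 negative. Their median was -0.07, with -0.22 in batch 1 and -0.02 in batch 2. An unadjusted p under 0.05 was found for 1 with a higher and 4 with a lower level, against 5.68% and 4.92% of all genes. No overlap was found for 2, Cspg4 and Pdgfrb, against 2.04% of all genes. Both were lower on low salt (-0.50 ± 0.11 and -0.45 ± 0.10, adjusted p 0.207 and 0.21), while Myh11 and Tagln were near equal. Irx3, a factor of the conduction system, read 23.9, 18.0, 28.8 and 36.6 CPM on high and 7.79, 14.8, 17.5 and 15.1 CPM on low salt (-0.95 ± 0.19, adjusted p 0.176), and Hcn4, the pacemaker channel, had -2.08 in batch 1 and -0.28 in batch 2. Summed conduction markers, Irx3 among them, ran from 39.7 to 56.0 CPM on high and from 28.1 to 35.1 CPM on low salt. The list had no shared direction: of 7 markers tested 0 passed the threshold, 4 were positive and 3 negative. Their median was 0.01, with -0.44 in batch 1 and 0.13 in batch 2. The part of cell content in the values of other genes was not tested.

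**Figure D4:**
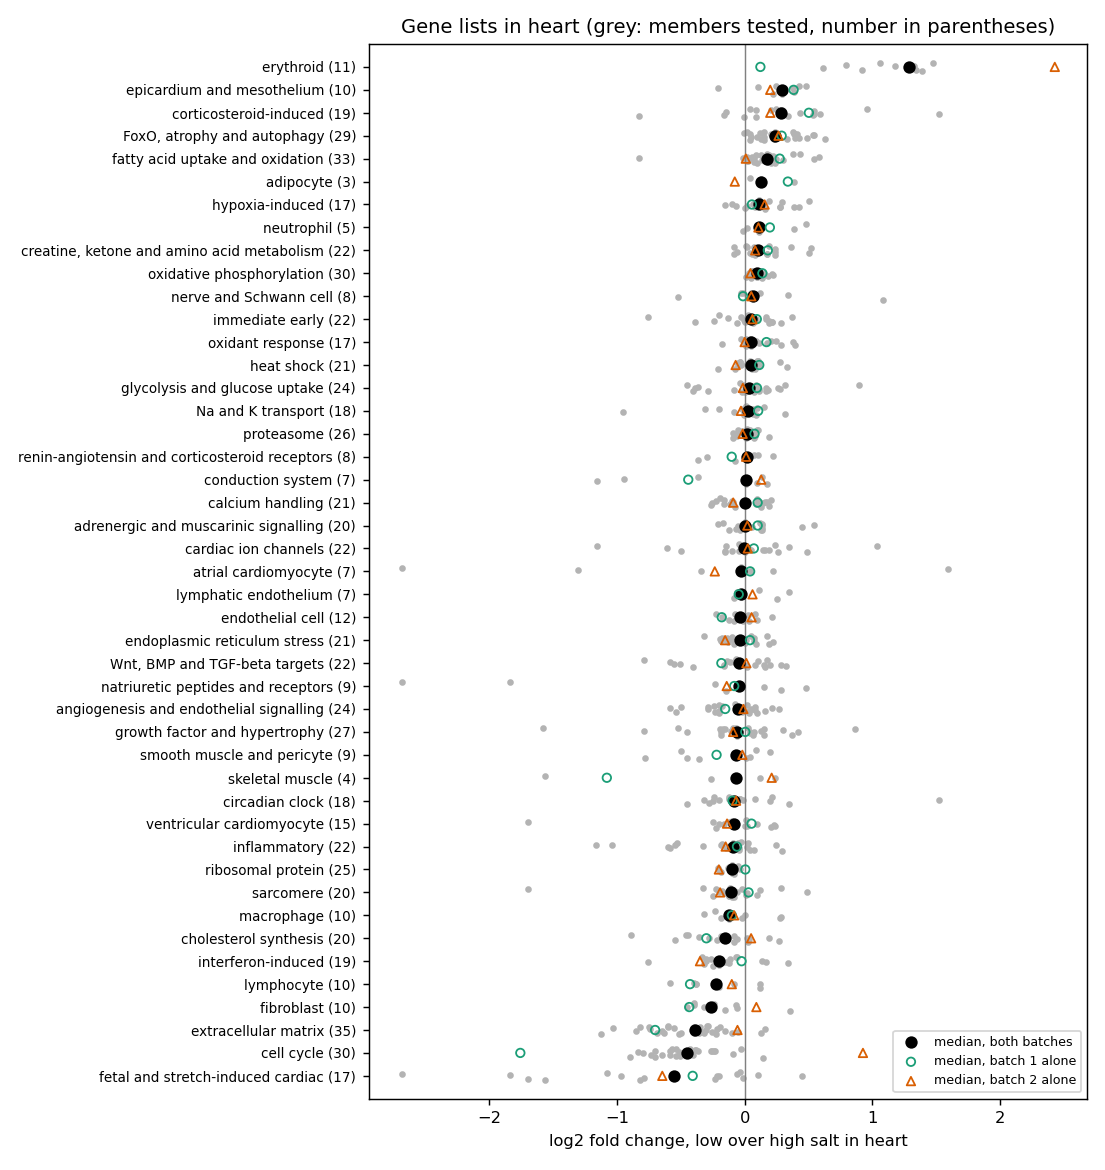
Median log2 fold change, low over high salt (x axis), of the 45 gene lists in heart, ordered by the median on the y axis with the number of members tested in parentheses. Grey points are members, black points the median from both batches, open circles and triangles the median in batch 1 and batch 2; the FoxO list is right of 0 and the stretch-induced list left of 0 in both batches, whereas the cell cycle list lies on opposite sides in the 2 batches.

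Whether a change in ventricle differed from that in kidney inner medulla was tested as an interaction over the 16 libraries of the salt experiment. The labels do not say whether heart and kidney came from the same rats. The difference passed the threshold for 161 of 19408 genes (0.83%), 88 with a more positive and 73 with a more negative value in heart. With the replicate number as a block 16 passed, and the count ran from 11 to 194 when 1 of the 16 libraries was left out. Of the 8 genes past the threshold in heart, 5 also passed this test. Fzd1 stood at 156 CPM on high and 189 CPM on low salt in kidney, a log2 fold change of 0.31, and the difference between tissues was -1.10 ± 0.13 (adjusted p 0.0103, edgeR). Jpx was lower on low salt in kidney too, with -0.62, and the difference was -1.22 ± 0.22 (adjusted p 0.0296). Fbxo31 had -0.14 in kidney and a difference of 0.64 ± 0.09 (adjusted p 0.0172), Nid2-ps16 0.17 and -0.76 ± 0.16 (adjusted p 0.0497), and Snai3 -0.14 and -2.68 ± 0.39 (adjusted p 0.0158). Under the block, the adjusted p of the difference stayed under 0.05 for Fzd1 and Fbxo31, and was 0.0999 for Jpx, 0.0836 for Nid2-ps16 and 0.058 for Snai3. For Acta1, Fbxl22 and LOC134484917 the difference did not pass (adjusted p 0.287, 0.066 and 0.296), and kidney levels were at most 0.0545, 0.471 and 0.451 CPM, so little can be read from kidney. Snai3, whose difference passed, was also under a mean of 1 CPM in kidney on each diet, so the same limit holds for it.

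The other named genes whose difference passed had estimates of opposite sign in the tissues, and no test of the kidney values alone is given here. Zbtb16 had a log2 fold change of 2.35 in kidney against -0.16 in heart, a difference of -2.51 ± 0.33 (adjusted p 0.0103). The sign of its heart value was not stable: that value had an SE of 0.25, and it was 0.26 in batch 1 and 0.19 without replicate 3 of the high-salt group. Rrad had 1.01 in kidney against -0.26 in heart (-1.27 ± 0.16, adjusted p 0.0103). Ankrd1, at 8.84 CPM on high and 10.9 CPM on low salt in kidney, had 0.31 there against -1.07 in heart (-1.38 ± 0.26, adjusted p 0.0303). Frat1 had -0.66 in kidney against 0.82 in heart (1.48 ± 0.22, adjusted p 0.016), and Ulk1 -0.22 against 0.63 (0.86 ± 0.12, adjusted p 0.0129). Among the genes chosen after their values were seen, the difference also passed for Bnip3 (-0.72 in kidney, difference 1.15 ± 0.25, adjusted p 0.0497), Cspg4 (0.72 in kidney, -1.21 ± 0.20, adjusted p 0.0228) and Thbs1 (0.31 in kidney, -1.43 ± 0.29, adjusted p 0.0448). Per1 had 1.15 in kidney and 1.52 in heart, with a difference of 0.38 ± 0.48 (adjusted p 0.787). Fkbp5 had 0.70 in kidney and -0.00 in heart, and the difference of -0.69 ± 0.18 did not pass (adjusted p 0.0987). With 1 library left out at a time, or refitted under the other settings, Ulk1 and Zbtb16 passed in all 22 alternative fits. Fzd1 and Rrad passed in 21, Fbxo31 in 20, Frat1 in 19, Jpx in 14, Ankrd1 in 13 and Nid2-ps16 in 4. Snai3 was tested in 21 of these fits and passed in 19. The direction of each gene was the same in every fit that tested it.

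**Figure D5:**
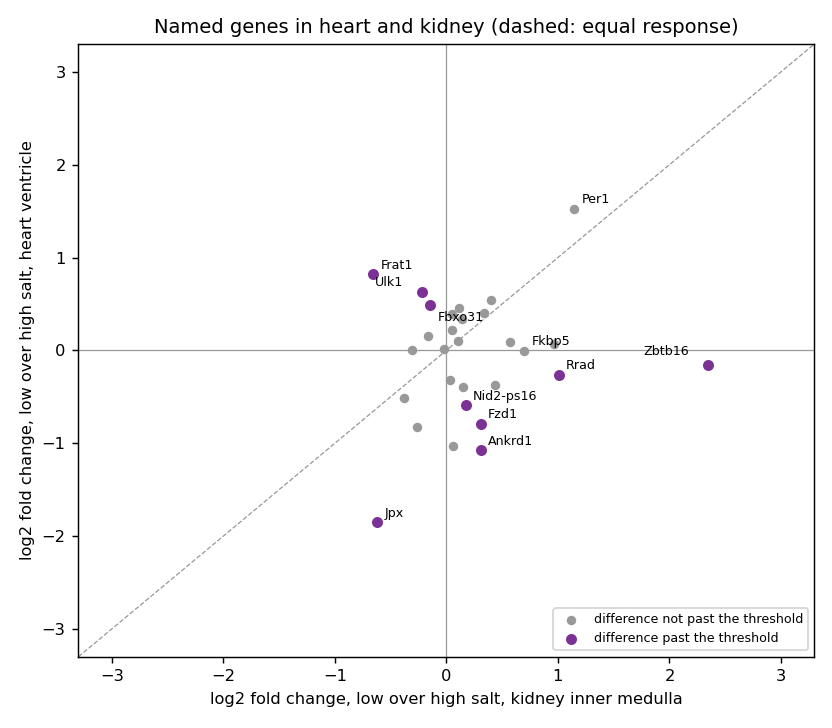
Log2 fold change, low over high salt, in kidney inner medulla (x axis) and heart ventricle (y axis) of the 29 named genes with a mean of at least 1 CPM in kidney. Purple points are the 9 genes whose difference between tissues passed an adjusted p of 0.05, grey points the rest, and the dashed line marks equal changes; Per1 lies near the line, and Zbtb16 lies far to its right.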

How the data were processed

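Poly(A) RNA of each sample was made into stranded libraries and sequenced as single-end reads, per the labels' protocols. The authors deposited expected counts per gene for each tissue, estimated with Salmon after trimming with Trimmomatic and bcl2fastq 2.19, per the submitters' processing notes. Which genome build and gene annotation they used, and whether reads were counted by strand, is not given in the sources used here. All 36856 gene symbols of the table are in the RefSeq table of GRCr8.

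These values were rounded to whole counts, filtered with filterByExpr (minimum count 10), scaled by TMM and fitted in edgeR 4.0.16 (R 4.3.3) with the quasi-likelihood test and terms for batch and diet. P-values were adjusted by the Benjamini-Hochberg method across the 15473 genes, and 0.05 was the threshold. CPM values use the TMM-scaled library size. Exceptions are the checks of Myl2, Tnnt2, Bmp10, Xist, Y-linked genes and single skeletal muscle markers other than Acta1 and Ckm. These use the sum of all counts. A fold change is low over high salt, on the log2 scale, with its SE. The heart and kidney interaction was fitted over 16 libraries with an intercept for each tissue and batch.

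Genes were named by this rule: in each direction the 15 genes with the largest fold among those past the threshold, with a mean of 1 CPM or more in a group and no change of sign between batches. Up to 4 such members of each of 45 gene lists were named too, with 31 preset genes, of which 30 were tested. A few further preset genes are not reported here. Where fewer than 5 genes passed in a direction, the 5 with the smallest p were taken. The gene lists and the comparison itself were chosen with earlier results of these data known. Each sample is labelled as a separate rat.

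Alternatives were DESeq2 1.42.0, other scalings, other filters, no batch term, a replicate block, a fold threshold of 1.2, each batch alone and each library left out. Same-numbered libraries of the diets deviated together (correlations 0.22, 0.30, 0.29 and 0.24), so the number was tried as a block. Libraries of another number in the same batch did so as much (0.26, 0.29, 0.32 and 0.28). With batch removed, the correlation of same-numbered libraries was -0.0055 in batch 1 and -0.0447 in batch 2. Each diet has 2 libraries in a batch, so the 2 numbers of a batch give the same value by construction. The main fit had batch as a term and did not pair libraries by number. On simulated counts for the heart comparison (15473 genes, 200 of them changed), the test recovered 25.4% of genes changed 1.5-fold. It recovered 55.2% of those changed 2-fold and 95.5% of those changed 4-fold, with 4 false calls among 121. The real fit placed 8 genes past the threshold. An adjusted p depends on how many other genes have a small p, so these rates may be too high for the real comparison.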

Additional observations from a re-analysis of the deposited data

Results flagged for a closer look

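Among the named genes, 6 of 80 groups of 4 heart libraries had 1 value set far from the other 3, where chance gives about 1 in 20. Replicate 4 of the high-salt group stood out for Nppa, at 2513 CPM with the next value at 299.8 CPM, and for Myh7, at 4491 CPM with the next at 1048 CPM. Replicate 3 of the high-salt group stood out for Zbtb16, at 79.1 CPM against 37.7 CPM for the next. Replicate 3 of the low-salt group stood out for Ankrd1, at 2556 CPM against 2158 CPM, and for Fbxo32, at 67.0 CPM against 50.0 CPM. Replicate 1 of the low-salt group stood out for Angptl4, at 1.43 CPM against 0.567 CPM.

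The log2 response to low salt differed between ventricle and kidney inner medulla by a test of the difference itself for 10 of the named genes. The heart value was the more positive for Fbxo31 (0.64), Frat1 (1.48) and Ulk1 (0.86). It was the more negative for Jpx (-1.22), Fzd1 (-1.10), Nid2-ps16 (-0.76), Ankrd1 (-1.38), Rrad (-1.27), Zbtb16 (-2.51) and Snai3 (-2.68).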

How the results depend on the processing

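The fold changes of the 8 genes past the threshold kept their direction under every alternative that gave a value. The counts of genes moved more. Against 2 higher and 6 lower, DESeq2 gave 189 and 114, no filter on low counts 48 and 37, no batch term 0 and 1, the replicate block 0 and 0, a fold threshold of 1.2 gave 0 and 2, batch 1 alone 1 and 0, and batch 2 alone 0 and 1. Without 1 library, 0 to 4 genes were higher and 1 to 4 lower. The interaction count of 161 was 14 without a batch term, 16 with the replicate block and 11 to 194 without 1 library, with 11 when replicate 2 of the high-salt heart group was left out. The cause was not tested.

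Some small fold changes turned direction. Fkbp5 was 0.0014 in DESeq2, 0.0012 with DESeq2 size factors and 0.039 without a batch term. With upper quartile scaling Ryr2 was -0.00024 and Nr3c1 -0.0030. In batch 1 alone the values were 0.092 for Myh6, 0.017 for Myh7, 0.26 for Zbtb16, 0.30 for Fkbp5, -0.061 for Sgk1, -0.057 for Nr3c1, -0.14 for Ace, -0.016 for Agtr1a, 0.80 for Angptl4 and -0.13 for Vegfa. In batch 2 alone they were -0.066 for Atp2a2, -0.19 for Ryr2, -0.33 for Pdk4, -0.041 for Nr3c2, -0.23 for Ucp3, 0.097 for Col1a1 and 0.40 for Col3a1. Without 1 library, Ryr2 ran from -0.090 to 0.091, Nr3c1 from -0.020 to 0.037, Ace from -0.032 to 0.25, Zbtb16 from -0.28 to 0.19, Fkbp5 from -0.087 to 0.078 and Vegfa from -0.055 to 0.062.

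List medians moved by more than their spread as follows. The median was -0.19 for renin-angiotensin genes with no filter, -0.66 for skeletal muscle and -0.79 for stretch-induced genes at a filter of 1 CPM, and -0.14 for natriuretic genes with the replicate block. In batch 1 alone it was 0.054 for ventricular muscle, -0.44 for conduction, -0.18 for endothelial, -0.22 for smooth muscle, 0.34 for adipocyte, -1.08 for skeletal muscle, 0.50 for corticosteroid-induced, -0.15 for renin-angiotensin, -0.41 for stretch-induced, 0.031 for sarcomere, 0.10 for calcium, 0.072 for ion channel, 0.11 for Na and K transport, -0.30 for cholesterol, -0.70 for matrix, 0.10 for adrenergic, -0.15 for angiogenesis, 0.15 for oxidant response, -1.76 for cell cycle and 0.078 for proteasome genes. In batch 2 alone it was -0.23 for atrial, -0.077 for adipocyte, -0.14 for natriuretic, -0.089 for calcium, 0.0098 for fatty acid, 0.051 for cholesterol, -0.056 for matrix, -0.070 for heat shock and 0.93 for cell cycle genes. Without 1 library the median ran from -0.13 to -0.018 for natriuretic, -0.72 to -0.38 for stretch-induced, -0.032 to 0.069 for ion channel, -0.076 to 0.14 for lymphatic, -0.072 to 0.060 for calcium, -0.96 to 0.23 for skeletal muscle and -0.45 to 0.031 for conduction genes. With 4 rats a diet, changes under 2-fold were often below what the test could find on simulated counts. The counts given with the replicate block are the calls it changed in heart.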
